A study of Mus musculus with 2 samples.

Results

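The genes described here encode 8 regulators that restrain BMP and TGF-β signaling: *Smad6*, *Smad7*, *Bambi*, *Ski*, *Skil*, *Dusp9*, *Smurf1* and *Smurf2*. They were taken by name, and all 8 were among the 31053 genes counted in both libraries. The study profiled mouse embryonic stem cells (ESCs) of the E14 line by droplet single-cell RNA-seq, with 1 library of parental cells (WT) and 1 library of cells labelled Smad1/5 dKO, in which CRISPR–Cas9 had been used against *Smad1* and *Smad5*. Both were feeder-free and had been kept on gelatin in medium with fetal bovine serum and leukemia inhibitory factor (LIF), with no other treatment. The labels do not say which double knockout line or clone gave the library, so line, culture and library cannot be told apart from genotype.

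BMP receptors phosphorylate SMAD1 and SMAD5, whereas TGF-β, activin and Nodal receptors phosphorylate SMAD2 and SMAD3, and each pair enters the nucleus with SMAD4. Many genes that the SMADs switch on encode proteins that then damp the signal, which makes the pathway a textbook negative feedback loop. SMAD6 and SMAD7 are inhibitory SMADs that compete at the receptors, BAMBI is a receptor-like protein without a kinase, and SKI and SKIL (SnoN) are nuclear corepressors of SMAD complexes. SMURF1 and SMURF2 are ubiquitin ligases that mark SMADs and receptors for degradation. DUSP9 is a phosphatase of ERK MAP kinase that BMP signaling induces in ESCs, where it ties the BMP pathway to the ERK pathway. *Id1*, *Id2* and *Id3*, which encode inhibitors of differentiation, are standard target genes of SMAD1/5 and served here as readout genes.

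The promoter of *Smad6* is shown because *Smad6* was 1 of the 2 members that were lower in the S1/5 dKO-labelled library by the fold used here, and because a SMAD motif lies across its start site. A RefSeq promoter, 250 bases before to 50 bases after the start site on GRCm38.p6, was at hand for 4 of the 8 members, *Smad6*, *Ski*, *Smurf1* and *Smurf2*. Motifs were searched over that whole window, and the stretch printed is its upstream part with the first bases after the start site. It is chr9:64022056-64022309 on the minus strand, 254 bases written 5′ to 3′ in the direction of the gene, and its capitals mark the palindromic SMAD box GTCTAGAC, whose first base lies 4 bases before the start site.
Smad6: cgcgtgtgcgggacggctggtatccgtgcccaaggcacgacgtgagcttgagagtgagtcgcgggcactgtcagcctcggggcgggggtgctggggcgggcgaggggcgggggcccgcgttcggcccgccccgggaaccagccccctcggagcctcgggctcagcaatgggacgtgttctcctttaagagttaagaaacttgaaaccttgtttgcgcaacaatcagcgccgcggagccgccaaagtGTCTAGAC
GTCTAGAC, which reads the same on both strands, was found in the whole window of 70 of the 32851 promoters in the table, or 0.213%, and in *Smad6* alone of these 4 members. The GC-rich motif GGCGCC, also the same on both strands, was found in 11.9% of all promoters, with 1 match in *Ski* and 2 in *Smurf2*. The shorter box CAGAC, searched on both strands and contained in neither of the other motifs, was found in 49.6% of promoters, with 2 matches each in *Smurf1* and *Smurf2*. A match describes the letters of the window and is no measure of binding.

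The rule for cells, 1000 or more detected genes and no more than 5% of UMIs from mt- genes, left 2236 WT cells and 2910 cells of the S1/5 dKO-labelled library. They held 95965242 and 109020533 UMIs (molecules counted by their tags), with medians of 38662 and 34549 per cell, and the libraries shared 0 cell barcodes. Levels are UMIs per 1000000 UMIs (CPM) summed over the cells of a group, with an exact Poisson 95% interval. The kit counts 1 tag at the 3′ end of each molecule, so levels of different genes can be set side by side without a length correction. With 1 library per condition there was no replicate check, so no test was possible, and all intervals cover counting error alone, not the spread between cultures. All 12 naive pluripotency markers were detected, at a sum of 7452 in WT against 7699 CPM in the other library, with 0 of them past 1.3-fold. The 2C-like markers mark rare cells resembling an early cleavage embryo. Both of the 2 with enough UMIs were higher in the S1/5 dKO-labelled library, where the list summed to 10.5 against 3.47 CPM. Cells with a UMI of such a marker numbered 8 in WT and 14 in the other library, so these sums rest on few cells. The endoderm-like list summed to 171 against 208 CPM, with 3 of 4 genes lower, the fibroblast-like list to 238 against 282 CPM with 0 of 1 past the fold, and the neural-like list to 14.2 against 15.1 CPM with 1 of 3 lower. The formative and primed list summed to 54.3 against 52.8 CPM, with 2 of 5 genes lower, *Sox3* and *Zic2*, and 0 higher. The ER stress list had 1 of 9 genes lower and the Wnt response list 3 of 5 higher. Of all 11349 genes with enough UMIs, 3.15% were higher and 4.04% lower by at least 1.3-fold. The part of these markers in the members' levels was not tested.

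The targeted genes and the readouts were checked in each library. *Smad1* mRNA was at 13.4 in WT and 9.17 CPM in the S1/5 dKO-labelled library, a log2 ratio of −0.55. *Smad5* mRNA went the other way, from 6.05 to 9.09 CPM, a log2 ratio of 0.59. The position of the edits was not given in the sources used here, and 3′ tags count a transcript whether or not an edit upstream breaks its reading frame, so neither value checks the knockout. *Id1* was at 323 in WT against 161 CPM in the other library, *Id2* at 57.1 and 16.8 CPM, and *Id3* at 103 and 61.5 CPM. All 3 *Id* genes were lower in the S1/5 dKO-labelled library, by log2 ratios of −1.01, −1.76 and −0.75.

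Between the libraries, *Smad6* and *Dusp9* stood furthest apart of the 8 members, both lower in the S1/5 dKO-labelled library. *Bambi*, *Skil* and *Smurf1* were lower by smaller amounts, *Smad7* and *Smurf2* were near the same level, and *Ski* was slightly higher. The *Smurf* values depended on the setting: with every cell thinned to 10000 UMIs the log2 ratio was −0.004 for *Smurf1* and 0.21 for *Smurf2*. With the mean of per-cell CPM, which discards no UMIs, it was −0.22 and −0.06. Thinning leaves fewer UMIs of these scarce genes, and the cause of the shift was not tested. A gene was counted as past the fold if it differed by at least 1.3-fold and had at least 200 UMIs over both groups, which all 8 members had. By that rule 2 of 8 members were lower, where 4.04% of the 11349 genes with enough UMIs were lower, and 0 of 8 were higher, where 3.15% of those genes were. The median log2 ratio of the members was −0.25, against −0.01 over all genes compared, and 7 of 8 lay below 0, as did 51.8% of all genes. With 8 members, these counts describe the list and set it apart from no other list.

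**Figure D1:**
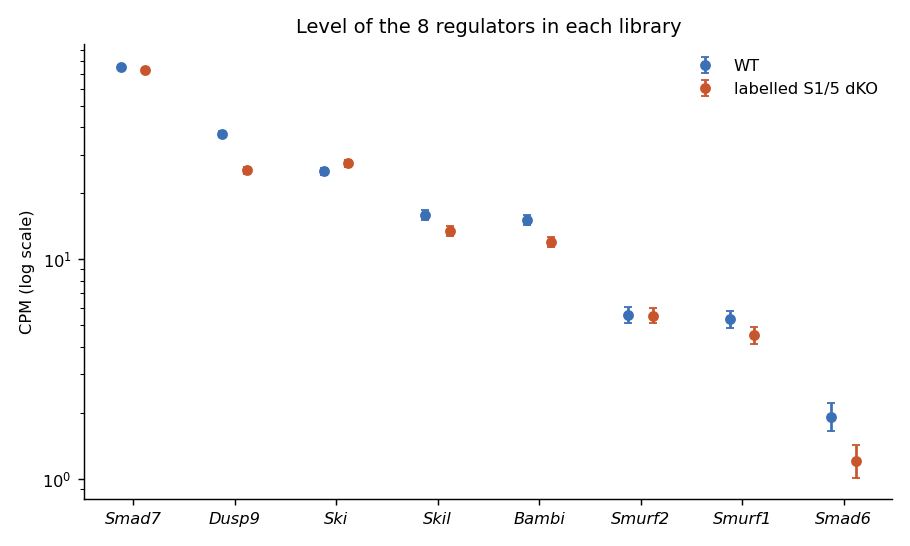
Level of each of the 8 regulators in the WT library and in the S1/5 dKO-labelled library. The vertical axis gives CPM on a log scale, points are sums over cells, and bars are exact Poisson 95% intervals (counting error). The levels run from under 2 CPM for *Smad6* to over 70 CPM for *Smad7*, and the widest gaps between the libraries are those of *Smad6* and *Dusp9*.

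Of the inhibitory SMADs, *Smad7*, which blocks both branches of the pathway, was the most abundant member, at 75.3 (73.6 to 77.1) in WT and 72.6 CPM (71.0 to 74.3) in the S1/5 dKO-labelled library. The log2 ratio was −0.05 (−0.10 to −0.01), and 68.6% of all genes compared lay at least as far from 0. *Smad6*, which acts mainly on the BMP branch, was the least abundant, with 183 UMIs or 1.91 CPM (1.64 to 2.20) in WT and 131 UMIs or 1.2 CPM (1.00 to 1.43) in the other library. Its log2 ratio of −0.67 (−1.0 to −0.33) corresponds to 1.59-fold lower, and 1.82% of all genes lay at least as far from 0 in either direction. The scarce inhibitory SMAD therefore carried the larger difference between the libraries, and the abundant one sat at nearly the same level in both.

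*Dusp9*, the ERK phosphatase gene, was at 37.2 (36.0 to 38.5) in WT and 25.4 CPM (24.5 to 26.4) in the S1/5 dKO-labelled library. Its log2 ratio was −0.55 (−0.62 to −0.48), or 1.46-fold lower, and 3.03% of all genes lay at least as far from 0. A single WT cell with 57915 UMIs held 53 of the 3571 *Dusp9* UMIs, where the next held 14, and without the cell richest in the gene in each library the log2 ratio was −0.53. Cells with at least 1 *Dusp9* UMI after each cell was thinned to 10000 UMIs made up 28.6% (26.7 to 30.5, exact binomial interval) of 2193 WT cells and 21.9% (20.4 to 23.5) of 2843 cells of the other library. Before thinning, the shares were 69.0% and 53.9%. As a measure of free RNA, barcodes with 10 to 100 UMIs, too few for a cell, held on average 0.063% and 0.0783% of the UMIs of a median cell, and the libraries held no cell type that should lack the gene. *Dusp9* was lower in each cell cycle phase, with log2 ratios of −0.60 in G1, −0.35 in S and −0.63 in G2/M cells, of which that in S cells was under the fold.

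The receptor-like gene *Bambi* was at 15.1 (14.4 to 15.9) in WT and 12 CPM (11.3 to 12.6) in the S1/5 dKO-labelled library, a log2 ratio of −0.34 (−0.45 to −0.23). The corepressor gene *Skil* was at 15.9 CPM (15.1 to 16.8) and 13.4 CPM (12.7 to 14.1), a log2 ratio of −0.25 (−0.35 to −0.14). Its relative *Ski* was at 25.2 CPM (24.2 to 26.2) and 27.4 CPM (26.4 to 28.4), a log2 ratio of 0.12 (0.05 to 0.20). None of these 3 genes was past 1.3-fold. The corepressor genes thus differed in opposite directions, *Skil* being lower and *Ski* higher in the S1/5 dKO-labelled library.

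Of the ubiquitin ligase genes, *Smurf1* was at 5.34 (4.88 to 5.82) in WT against 4.50 CPM (4.11 to 4.92) in the other library, a log2 ratio of −0.24 (−0.43 to −0.06). *Smurf2* was at 5.56 CPM (5.10 to 6.06) and 5.53 CPM (5.10 to 5.99), a log2 ratio of −0.01 (−0.18 to 0.16). Their levels in WT could not be told apart within counting error. In both libraries the order of the members from high to low began with *Smad7*. *Dusp9* came next in WT, ahead of *Ski*, whereas in the S1/5 dKO-labelled library *Ski* was ahead of *Dusp9*. *Skil* and *Bambi* followed with overlapping intervals in WT, then the *Smurf* genes and *Smad6*.

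The differences of the members were compared with those of their neighbours on the chromosomes. The members lie on chromosomes 3 (*Skil*), 4 (*Ski*), 5 (*Smurf1*), 9 (*Smad6*), 11 (*Smurf2*), 18 (*Smad7* and *Bambi*) and X (*Dusp9*) of GRCm38. In the GENCODE annotation *Smad6* spans bases 63953076 to 64022059 of chromosome 9, *Dusp9* bases 73639419 to 73643514 of chromosome X, and *Skil* bases 31095058 to 31122577 of chromosome 3. Over the 65 other genes with enough UMIs within 5 Mb of *Smad6* the median log2 ratio between the libraries was −0.04, over the 59 around *Dusp9* it was 0.02, and over the 32 around *Skil* it was 0.01. For the other 5 members the median within 5 Mb lay between −0.01 and 0.01.

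Cells of each library were then divided by *Id1*, to compare cells in which *Id1* was found after thinning with cells in which it was not. Each cell was thinned to 10000 UMIs, and a cell with at least 1 *Id1* UMI was called *Id1*-positive. There were 1562 *Id1*-positive and 631 *Id1*-negative WT cells, and 1578 and 1265 in the S1/5 dKO-labelled library. The 43 and 67 shallower cells were left out. In WT the median depth was 39277 UMIs in positive and 38664 in negative cells, and in the other library 35678 and 34168, so depth was close within each library. *Id2* and *Id3* followed *Id1* in WT, with log2 ratios of positive over negative cells of 1.08 and 0.94, and did not in the S1/5 dKO-labelled library, where the ratios were −0.05 (−0.19 to 0.08) and −0.02 (−0.09 to 0.05). Within phases of that library the ratio of *Id3* was 0.20 (0.05 to 0.35) in S and −0.17 (−0.26 to −0.07) in G2/M cells, and that of *Id2* was −0.20 (−0.39 to −0.01) in G2/M cells, so the pooled values near 0 covered opposite signs. The *Id1* groups of the S1/5 dKO-labelled library are therefore groups by *Id1* alone, and whether they differ in pathway activity was not tested.

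By this division *Skil* had the log2 ratio furthest from 0 of the members in each library, and its direction was opposite in the 2 libraries. In WT it was at 17.4 CPM (16.5 to 18.4) in *Id1*-positive and 11.9 CPM (10.6 to 13.3) in *Id1*-negative cells, a log2 ratio of 0.55 (0.37 to 0.73). In the S1/5 dKO-labelled library it was at 11.8 CPM (11 to 12.7) in positive and 15.5 CPM (14.4 to 16.6) in negative cells, a log2 ratio of −0.39 (−0.54 to −0.23), which is just past 1.3-fold. The difference of the log2 ratios was −0.94 (−1.17 to −0.70). Among the members with enough UMIs it was the sole one past the fold in either library. In WT 1 of the 7 members with enough UMIs was higher and 0 were lower, where 1.79% and 0.619% of 10018 genes were. In the S1/5 dKO-labelled library 0 of 7 were higher and 1 lower, where 3.26% and 2.49% of 10208 genes were. *Smad6*, with 183 and 131 UMIs, was under the minimum of 200 in both. The direction of *Skil* in the S1/5 dKO-labelled library depended on the readout. Between cells with and without an *Id2* UMI after thinning the log2 ratio there was 0.70, a division added after seeing the data. By the same division *Smad7* had −0.24 and *Dusp9* −0.13 in that library, opposite in sign to their ratios by *Id1* given next.

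**Figure D2:**
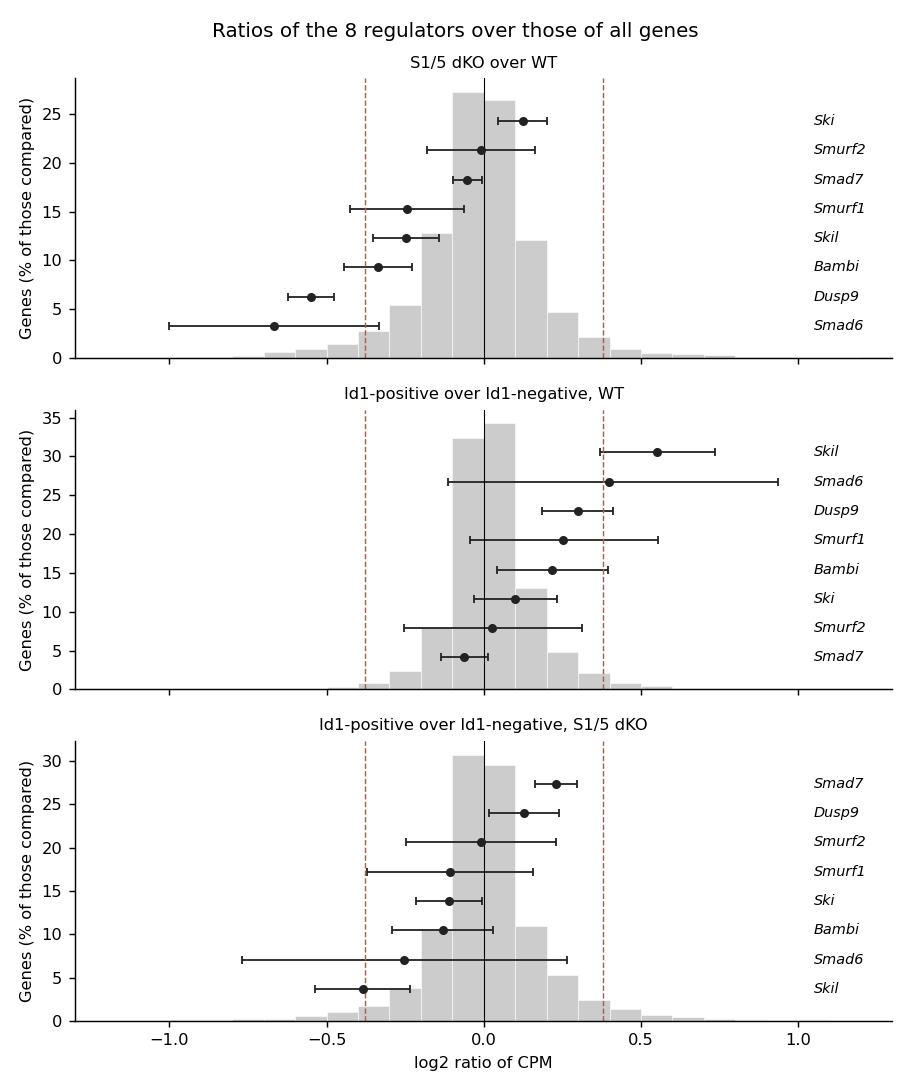
Log2 ratios of the 8 regulators in the comparison of the libraries and in the *Id1* comparison of each library. The horizontal axis is the log2 ratio of CPM, grey bars give the percent of all genes with at least 200 UMIs in each bin of 0.1, points with bars are the members with their 95% counting intervals, and dashed lines mark 1.3-fold. *Skil* lies past the right line in WT and at the left line in the S1/5 dKO-labelled library.

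*Dusp9* was higher in *Id1*-positive cells of both libraries by less than 1.3-fold. In WT it was at 39.3 CPM (37.8 to 40.8) in positive and 32.0 CPM (29.8 to 34.2) in negative cells, a log2 ratio of 0.30 (0.19 to 0.41). In the other library it was at 26.4 CPM (25.1 to 27.7) and 24.1 CPM (22.7 to 25.6), a log2 ratio of 0.13 (0.02 to 0.24). That small ratio was −0.04 in G1 cells alone and −0.07 with levels from thinned UMIs. *Dusp9* in *Id1*-negative WT cells was thus above its level in *Id1*-positive cells of the S1/5 dKO-labelled library, and the intervals did not overlap.

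*Smad7* was level in WT and higher with *Id1* in the S1/5 dKO-labelled library. In WT it was at 74.5 CPM (72.5 to 76.6) in positive and 77.8 CPM (74.4 to 81.2) in negative cells, a log2 ratio of −0.06 (−0.14 to 0.01). In the other library it was at 77.6 CPM (75.4 to 79.8) and 66.2 CPM (63.8 to 68.5), a log2 ratio of 0.23 (0.16 to 0.30). The difference of the ratios was 0.29 (0.19 to 0.39). The near equality of *Smad7* between the whole libraries therefore covered 2 unlike parts: among *Id1*-negative cells the log2 ratio of the S1/5 dKO-labelled library over WT was −0.23 (−0.31 to −0.15), and among *Id1*-positive cells it was 0.06 (0.00 to 0.11).

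The remaining members showed smaller ratios. *Bambi* had a log2 ratio of positive over negative cells of 0.22 (0.04 to 0.39) in WT and −0.13 (−0.29 to 0.03) in the S1/5 dKO-labelled library. *Ski* had 0.10 (−0.03 to 0.23) and −0.11 (−0.22 to −0.01). *Smurf1* had 0.25 (−0.04 to 0.55) and −0.11 (−0.37 to 0.16), *Smurf2* 0.03 (−0.25 to 0.31) and −0.01 (−0.25 to 0.23), and *Smad6* 0.40 (−0.11 to 0.94) and −0.25 (−0.77 to 0.26). The median over the 8 members was 0.23 in WT, against 0.01 over all genes compared, and −0.11 in the other library, against 0.00. In WT 7 of 8 members were above 0, where 44.1% of all genes compared were below it, and in the S1/5 dKO-labelled library 6 of 8 were below 0, where 49.0% of all genes were.

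The libraries were also compared within *Id1*-positive and within *Id1*-negative cells, and no test of the difference between these comparisons was made. Neither group was matched in *Id1* and *Id2*. In *Id1*-positive cells *Id1* was at 424 and *Id2* at 66.8 CPM in WT against 250 and 16.5 CPM in the other library. In *Id1*-negative cells *Id1* was at 58.3 and *Id2* at 31.5 CPM in WT against 41.6 and 17.2 CPM. *Id3* was level in *Id1*-negative cells, at 62.0 and 62.1 CPM, and not in *Id1*-positive cells, at 119 and 61.3 CPM. In *Id1*-positive cells *Smad6*, *Bambi*, *Skil* and *Dusp9* were lower in the S1/5 dKO-labelled library by at least 1.3-fold, with log2 ratios of −0.88 (−1.32 to −0.45), −0.45 (−0.59 to −0.31), −0.56 (−0.69 to −0.42) and −0.57 (−0.66 to −0.49). Those are 4 of 8 members, where 4.60% of 10587 genes were lower, and 0 of 8 were higher, where 3.29% of genes were. In *Id1*-negative cells 1 of 7 members with enough UMIs was lower, where 2.93% of 9426 genes were, and 0 were higher, where 3.28% were. That member was *Dusp9*, with −0.40 (−0.53 to −0.27). There *Skil* was higher, with a log2 ratio of 0.38 (0.18 to 0.57), just under the fold, and *Ski* had 0.26 (0.12 to 0.40).

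The cells were next divided into 4 classes by their *Id1* UMIs after thinning: 0, 1 to 2, 3 to 5, and 6 or more. The WT classes held 631, 740, 429 and 393 cells, and those of the S1/5 dKO-labelled library 1265, 991, 410 and 177. Within WT the highest *Id1* class stood apart for *Skil*, *Dusp9* and *Smad6*. *Skil* was at 11.9, 13.1, 17.0 and 26.1 CPM over the 4 WT classes, a log2 ratio of 1.13 (0.92 to 1.35) between the highest class and the class of 0. *Dusp9* was at 32.0, 32.3, 38.4 and 53.9 CPM, a log2 ratio of 0.75 (0.62 to 0.89). Without the cell that held 53 *Dusp9* UMIs, which had 9 *Id1* UMIs after thinning, the highest class was at 50.9 CPM. *Smad6* was at 1.55, 1.65, 1.68 and 3.23 CPM, a log2 ratio of 1.06 (0.45 to 1.68). That ratio rests on 55 UMIs in the highest class and 41 in the class of 0. *Id2*, as the readout, was at 31.5, 37.0, 56.2 and 136 CPM over the same classes.

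*Smad7* was lowest in the highest WT class, at 77.8, 79.0, 73.0 and 67.7 CPM over the 4 classes, a log2 ratio of −0.20 (−0.31 to −0.10) between the ends. *Bambi* was at 13.5, 15.3, 16.3 and 15.9 CPM and *Ski* at 24.0, 25.8, 26.1 and 24.8 CPM, with neighbouring classes overlapping in their intervals. The *Smurf* genes stayed between 4.70 and 6.42 CPM in all 4 WT classes.

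The classes of the S1/5 dKO-labelled library gave another picture. *Smad7* was at 66.2, 75.3, 78.0 and 88.3 CPM, a log2 ratio of 0.42 (0.29 to 0.54) between the ends, so that the class with most *Id1* was the highest there and the lowest in WT. *Dusp9* was at 24.1, 25.6, 26.6 and 29.8 CPM, a log2 ratio of 0.30 (0.09 to 0.51). *Skil* was at 15.5, 11.8, 11 and 14.1 CPM, highest in the class with 0 *Id1* UMIs after thinning and next highest in the top class, with overlapping intervals. *Bambi* was at 12.6, 11.8, 11.6 and 9.97 CPM. *Smad6* was at 1.33, 1.26, 0.970 and 0.683 CPM, the last from 5 UMIs. In the highest *Id1* class the libraries differed most in *Smad6*, with a log2 ratio of −2.24 (−3.92 to −0.93), in *Skil*, with −0.89 (−1.22 to −0.58), in *Dusp9*, with −0.85 (−1.07 to −0.64), and in *Bambi*, with −0.67 (−1.07 to −0.30). In that class *Smad7* was higher in the S1/5 dKO-labelled library, with 0.38 (0.24 to 0.52). That class held *Id1* itself at 1019 in WT against 669 CPM in the other library, so the open-ended class was not matched in *Id1* level.

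**Figure D3:**
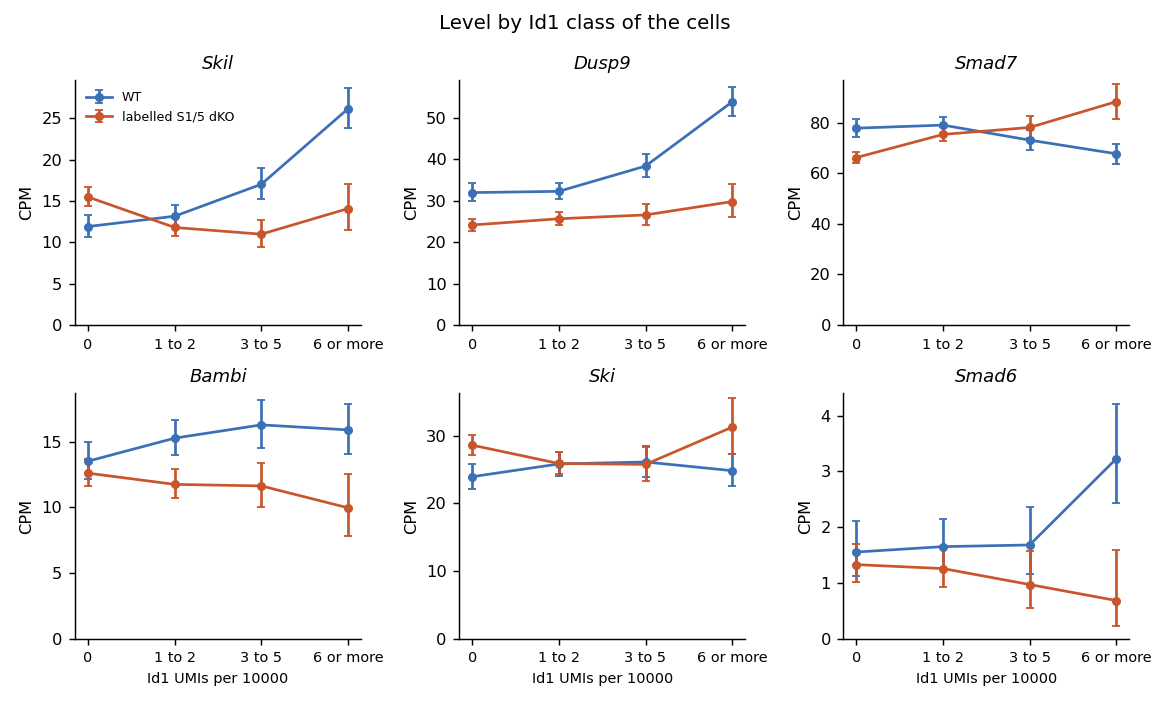
Levels of 6 members in cells with 0, 1 to 2, 3 to 5, and 6 or more *Id1* UMIs per 10000, in each library. The vertical axes give CPM from 0, and bars are exact Poisson 95% intervals (counting error). In WT *Skil* and *Dusp9* are highest, and *Smad7* is lowest, in the class with most *Id1*. In the S1/5 dKO-labelled library *Smad7* is higher with *Id1*.

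Phases were assigned from S and G2/M gene scores, and *Smad7* and *Skil* differed between phases in both libraries. *Smad7* was at 69.2, 88.9 and 72.3 CPM in G1, S and G2/M cells of WT and at 63.0, 89.5 and 69.2 CPM in the S1/5 dKO-labelled library, so that S cells were highest in both libraries, with no overlap of intervals with the other phases. *Skil* was at 13.0, 15.5 and 17.8 CPM in G1, S and G2/M cells of WT and at 9.91, 12.7 and 15.3 CPM in the other library, so that G1 cells were lowest in both. *Dusp9* was flat over the phases in WT, between 36.3 and 37.8 CPM, and ran from 24.4 to 28.5 CPM in the other library, highest in S cells. *Bambi* stayed between 15.0 and 15.3 CPM in WT and between 11.5 and 12.2 CPM in the S1/5 dKO-labelled library. *Ski* was at 24.2, 24.0 and 26.4 CPM in G1, S and G2/M cells of WT, with overlapping intervals, and at 22.3 (20.5 to 24.2), 28.7 (26.7 to 30.9) and 29.1 CPM (27.8 to 30.6) in the other library, where G1 cells were lowest. *Smurf2* was at 5.01, 6.46 and 5.44 CPM in WT, and at 4.57 (3.78 to 5.47), 6.84 (5.88 to 7.92) and 5.39 CPM (4.80 to 6.03) in the S1/5 dKO-labelled library, where the intervals of G1 and S cells did not overlap. *Smurf1* lay between 4.30 and 5.93 CPM and *Smad6* between 0.945 and 2.30 CPM over the phases of both libraries. The shares of phases were close between *Id1* groups: in WT 29.9% of *Id1*-positive and 31.2% of *Id1*-negative cells were in G1, and in the other library 24.1% and 27.9%.

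**Figure D4:**
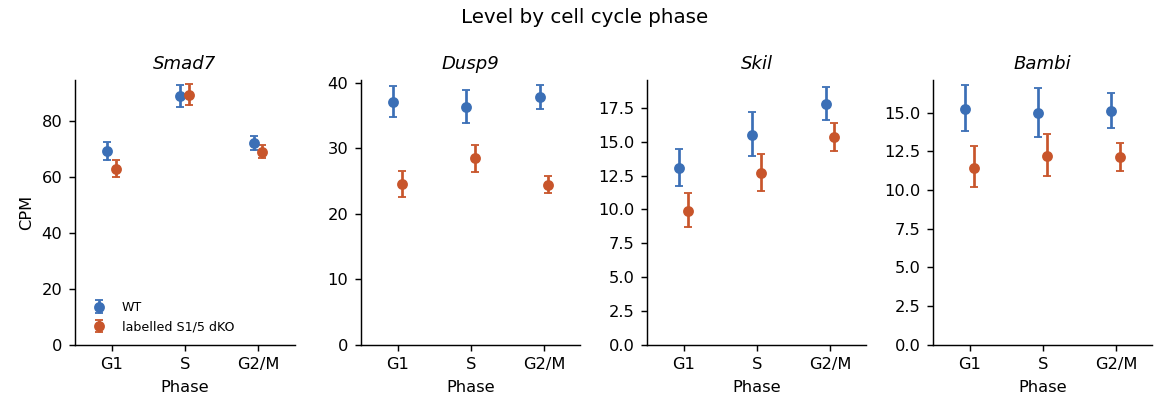
Levels of *Smad7*, *Dusp9*, *Skil* and *Bambi* by cell cycle phase in each library. The vertical axes give CPM from 0, and bars are exact Poisson 95% intervals (counting error). *Smad7* is highest in S cells of both libraries, and *Skil* is lowest in G1 cells of both.

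Within each phase the *Id1* contrast of *Skil* kept its direction. In WT its log2 ratio of *Id1*-positive over *Id1*-negative cells was 0.45 (0.08 to 0.83) in G1, 0.96 (0.56 to 1.37) in S and 0.40 (0.16 to 0.65) in G2/M cells. In the S1/5 dKO-labelled library it was −0.51 (−0.88 to −0.15), −0.36 (−0.68 to −0.04) and −0.39 (−0.58 to −0.19). *Smad7* likewise kept its positive ratio in that library, at 0.19, 0.16 and 0.26. Its ratio in WT was −0.09 in G1, 0.11 in S and −0.14 in G2/M cells.

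*Sp5*, a Wnt response gene, moved with *Id1* in opposite directions in the libraries, as *Skil* did. Cells with an *Sp5* UMI after thinning made up 5.31% of *Id1*-positive and 2.85% of *Id1*-negative WT cells, and 6.21% and 11.9% in the S1/5 dKO-labelled library. *Skil* was higher in cells with *Sp5* in both libraries, at 23.8 against 15.5 CPM in WT and 23.8 against 12.5 CPM in the other library, log2 ratios of 0.62 and 0.93. In the S1/5 dKO-labelled library, *Smad7* was at 51.3 CPM in cells with *Sp5* and 74.6 CPM in cells without it, and *Dusp9* at 19.0 and 26.0 CPM. Among cells without *Sp5* the *Id1* contrast of *Skil* was close to that over all cells, with log2 ratios of 0.51 (0.33 to 0.70) in WT and −0.44 (−0.60 to −0.27) in the S1/5 dKO-labelled library. Among the 101 WT cells with *Sp5* it was 0.98 (0.11 to 1.98), and among the 248 cells with *Sp5* of the other library it was 0.42 (0.01 to 0.82), opposite in direction to the cells without *Sp5*. Between the libraries, *Smad6* and *Dusp9* had log2 ratios of −0.72 and −0.51 in cells without *Sp5*. Cells with a UMI of a 2C-like marker numbered 8 in WT and 14 in the other library, and without them the contrast of *Skil* was 0.55 and −0.39. Other markers moved with *Id1* in the S1/5 dKO-labelled library as well, where 3.26% of all genes compared were higher and 2.49% lower by the fold. The 12 naive pluripotency markers summed to 8069 CPM in *Id1*-positive and 7210 CPM in *Id1*-negative cells, with 1 of 12 higher, and the endoderm-like list to 186 and 150 CPM, with 1 of 3 higher. The 2C-like list summed to 0.242 CPM in *Id1*-positive and 20.3 CPM in *Id1*-negative cells there, with 1 of 1 lower. That gene, *Gm8300*, had 8 UMIs in *Id1*-positive and 607 in *Id1*-negative cells. Of the 14 cells with a UMI of a 2C-like marker in that library, 5 were *Id1*-positive and 9 *Id1*-negative, so these sums rest on few cells. The formative and primed list summed to 49.8 and 60.5 CPM, with 1 of 3 lower, and the neural-like list to 13.3 and 15.5 CPM, with 1 of 3 lower. In WT the 2C-like list summed to 3.60 and 3.15 CPM and the naive list summed to 7450 and 7452 CPM. The part of these markers in the *Id1* contrasts of the members was not tested.

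From cell to cell, *Smad7* and *Skil* varied more than counting alone gives in both libraries, and *Dusp9* did so more in WT than in the other library. In cells thinned to 10000 UMIs the variance over the mean, which is 1 for counting error alone, was 1.40 in WT and 1.29 in the S1/5 dKO-labelled library for *Smad7*, 1.28 and 1.16 for *Skil*, and 1.29 and 1.07 for *Dusp9*. For comparison, it was 7.04 and 3.42 for *Id1*. The other members lay between 0.975 and 1.2. The highest of these was *Smad6* in the S1/5 dKO-labelled library, from 34 cells with a UMI, which was above *Skil* and *Dusp9* there. The WT value of *Dusp9* includes a cell with 11 UMIs after thinning and was not computed without it. For members with a ratio above 1 the Poisson intervals are too narrow as a measure of the spread between cells.

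Over 24 groups of cells (2 libraries, 3 phases and 4 *Id1* classes), the genes whose log2 CPM followed a member most closely were sought among 8160 genes with at least 1000 UMIs. The pattern of *Dusp9* was most like that of *Id2*, with a Pearson r of 0.90, then *Ehd1* and *Id3*, each with 0.86. *Skil* was most like *Ppp4r1* (0.82), *Smad7* most like *Mlec* (0.87) and *Ski* most like *Tbk1* (0.84). The gene most like *Smurf1* was *Afg3l1* (0.77) and that most like *Smurf2* was *Ncapd3* (0.80), and *Smad6* had too few UMIs. Among the members, *Skil* and *Dusp9* had an r of 0.66 with each other and 0.69 and 0.90 with *Id2*, whereas *Smad7* had −0.18 with *Id2*. With *Id1* itself the r was 0.44 for *Skil*, 0.57 for *Dusp9* and 0.11 for *Smad7*. These correlations are over groups that share libraries and depth and are given as a description.

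Other genes of the pathway were taken from lists by their roles and compared between the libraries. Of all genes with enough UMIs 3.15% were higher and 4.04% lower by the fold. Of the SMAD transducers with enough UMIs 2 of 4 were past the fold, the targeted genes *Smad1* and *Smad5*, while *Smad2* had a log2 ratio of −0.06 and *Smad4* of −0.05. Of the receptors 0 of 7 were. Of the ligands and secreted antagonists 2 of 12 were higher and 1 lower in the S1/5 dKO-labelled library. The 2 were *Lefty1* and *Lefty2*, secreted inhibitors of Nodal that are themselves feedback genes of its pathway, at 24.0 and 52.5 CPM and at 14.2 and 24.9 CPM in WT and the other library, log2 ratios of 1.13 and 0.81. *Fstl1*, a follistatin-like gene, was the lower one, with −0.46. Of 27 other negative regulators 1 was higher, the imprinted gene *Peg10* with a log2 ratio of 1.19, and 1 lower, the transcriptional repressor gene *Tcf7l1* with −0.62. *Smad6* and *Dusp9* were thus lower, and the *Lefty* genes higher, in the S1/5 dKO-labelled library.

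The ERK response genes, which report the kinase that DUSP9 acts on, showed 0 of 15 past 1.3-fold between the libraries, with a median log2 ratio of −0.001 and a range of −0.17 to 0.30. Of 9 other MAP kinase phosphatase genes with enough UMIs, *Dusp16* was lower, with a log2 ratio of −0.67, and 0 were higher. With *Id1* in WT, *Dusp1* and *Dusp7* of 8 such phosphatase genes were higher, with log2 ratios of 0.52 and 0.48. In the S1/5 dKO-labelled library *Dusp1* was higher, with 0.51, and *Dusp4* lower, with −0.62. Over all genes compared 1.79% were higher and 0.619% lower with *Id1* in WT, and 3.26% and 2.49% in the other library. Of 13 ERK response genes with enough UMIs, 0 were past the fold with *Id1* in WT and 3 in the other library, where *Etv4* and *Ier3* were higher and *Dusp4* was lower.

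Genes of the lists that were past the fold in the same direction with *Id1* in both libraries were *Fst*, which encodes the activin antagonist follistatin and had log2 ratios of 0.41 in WT and 0.40 in the S1/5 dKO-labelled library, *Dusp1*, and *Otx2*, a formative and primed state gene that was lower with *Id1*, at −0.49 and −1.51. The BMP ligand gene *Bmp4* was at 57.4 CPM in *Id1*-positive and 47.9 CPM in *Id1*-negative WT cells, and at 85.3 and 50.2 CPM in the S1/5 dKO-labelled library, log2 ratios of 0.26 and 0.77. *Lefty1* was at 24.1 CPM in both *Id1* groups of WT, and at 41.6 CPM in *Id1*-positive and 67.4 CPM in *Id1*-negative cells of the other library. Hence in the S1/5 dKO-labelled library the *Id1*-positive cells had more *Bmp4* and *Smad7* and less *Skil* and *Lefty1* than the *Id1*-negative cells.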

How the data were processed

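Single cells of E14 mouse ESCs, 1 WT library and 1 S1/5 dKO-labelled library, were profiled on the Chromium 3′ platform (v3 chemistry). The authors deposited raw UMI counts per gene and barcode, with no normalization. Per the labels, the builds and tools named were mm10 and Cell Ranger 3.0.2, and the annotation version is not given in the sources used here. The deposited matrices held all barcodes. Cells were kept at 1000 or more detected genes and 5% or fewer mt- UMIs, and doublets were not removed (no caller was run, and leaving out cells of over 2 times the median UMIs was an alternative). For *Id1* classes, phases and shares each cell was thinned without replacement to 10000 UMIs (seed 1), while levels used all UMIs of the cells.

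Counts were summed per group and divided by their total (CPM). Intervals are exact Poisson for levels, exact binomial for shares and exact conditional binomial for ratios, all at 95%. Intervals of a difference of ratios add the errors of both. UMIs mark molecules, but intervals cover counting error alone. A gene was past the fold at 1.3-fold or more with 200 or more UMIs. No test was run, since there was 1 library per condition. Phases came from Seurat 5.3.0 and TMM scaling from edgeR 4.0.16. Ratios, intervals and thinning were tested on simulated data.

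The members, lists and rules were chosen with earlier results of these data known. Named genes were all members, the targeted and *Id* genes, up to 4 genes per list past the fold between the libraries, those past it in the same direction in both *Id1* comparisons, and the 3 genes most like each member with 1000 or more UMIs. Of these last the closest is given per member, and all 3 for *Dusp9*, and that of 1 member is not reported here. Genes outside that rule, such as *Bmp4*, *Sp5*, *Etv4*, *Ier3*, *Dusp4*, *Dusp7*, *Smad2* and *Smad4*, were named after their values were seen. Alternatives were other folds, minimum counts, scalings, cell filters, divisions by *Id1* and phases. Divisions by *Id2* and *Id3*, the comparison of the libraries without *Sp5* cells, that of *Dusp9* without its richest cells and the *Id1* comparisons without 2C-like cells were added after seeing the data.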

Additional observations from a re-analysis of the deposited data

Results flagged for a closer look

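The ratio of *Id1*-positive to *Id1*-negative cells had opposite signs in WT and in the S1/5 dKO-labelled library for 7 of the 8 members, which is why these are listed here, and with 1 library each the difference was not tested against the spread between cultures. The log2 ratio in the S1/5 dKO-labelled library minus that in WT was −0.94 (−1.17 to −0.70, counting error) for *Skil*, −0.35 (−0.58 to −0.12) for *Bambi*, −0.21 (−0.38 to −0.04) for *Ski* and 0.29 (0.19 to 0.39) for *Smad7*. For *Smad6* it was −0.65 (−1.36 to 0.05), for *Smurf1* −0.36 (−0.75 to 0.03) and for *Smurf2* −0.035 (−0.40 to 0.33), and these 3 intervals include 0. Of 15 settings, the one reported included, the sign was kept in 10 for *Ski* in WT, in 10 for *Smurf2* in each library, and in the S1/5 dKO-labelled library in 11 for *Smurf1* and 12 for *Smad6*, so the count of 7 depends on the setting. For *Smurf2* the ratios themselves were 0.03 and −0.01, both near 0. Of all genes compared 44.1% were below 0 in WT and 49.0% in the S1/5 dKO-labelled library. How many of all genes had opposite signs was not counted, so the count of 7 has no background beside it. For *Dusp9*, whose ratio was positive in both libraries, the difference was −0.17 (−0.33 to −0.01). *Sp5* differed in the same direction as *Skil*, by −1.67 (−2.04 to −1.3). Among cells without *Sp5* the log2 ratio of *Skil* was 0.51 in WT and −0.44 in the S1/5 dKO-labelled library.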

How the results depend on the processing

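No paired analysis was possible because each condition had 1 library, and for the same reason no replicate could be left out. Of 288 values of single members under other settings 244 stayed within the counting interval of the value reported, and 34 had another sign than the value reported. Of these 34, 1 belonged to a member past the fold: *Skil* in the S1/5 dKO-labelled library had a log2 ratio of 0.70 when cells were divided by *Id2*. Its other settings kept the sign, and in WT it ran from 0.40 to 0.96. Between the libraries the log2 ratio ran from −0.72 to −0.66 for *Smad6* and from −0.57 to −0.51 for *Dusp9*, and from −0.24 to −0.004 for *Smurf1* and −0.06 to 0.21 for *Smurf2*. The count of members past the fold between the libraries went from 2 to 3 at 1.2-fold, with *Bambi*, and to 1 at 1.5-fold and at 500 UMIs. Of all genes compared 7.19% were past the fold in either direction, with 14.2% at 1.2-fold, 2.58% at 1.5-fold and 4.75% at 500 UMIs. With *Id1* in WT the count went from 1 to 2 at 1.2-fold, at 50 UMIs, at 3 or more *Id1* UMIs and without thinning. It also went to 2 in G2/M cells, when divided by *Id2* and with levels from thinned UMIs, and to 0 at 1.5-fold. In S cells it went to 4 where the minimum of 200 UMIs was not applied within the phase. Of those 4, *Smurf1* (78 and 25 UMIs) and *Smurf2* (113 and 36) were under that minimum in S cells, with intervals that span 0. With the minimum applied within S cells the count was 2, *Skil* and *Dusp9*. In the S1/5 dKO-labelled library the count went from 1 to 0 at 1.5-fold, at 3 or more *Id1* UMIs, after thinning to 5000 UMIs and in S cells. It also went to 0 when divided by *Id3*, with levels from thinned UMIs and with the mean of per-cell CPM. Of all genes 5.75% were past the fold in that library as reported, and 1.72% to 11.3% in the settings where the count was 0. In G1 cells the count stayed at 1. *Smurf2* also passed 1.3-fold there, but with fewer UMIs than the minimum and with an interval that spans 0. The causes were not tested. Scaling by TMM shifted all ratios by 0.02 at most. Depth limits *Smad6* most, with 5 to 62 UMIs in the *Id1* classes.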
